A study of Mus musculus with 10 samples.

Results

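Cells expressing green fluorescent protein (GFP) from the Sox1 reporter were compared between hippocampi of old and young adult mice on 7 of the 10 arrays of the series. The arrays were chosen by their labels alone: 4 came from mice aged 1 year 9 months and 3 from mice aged 7, 5 and 4 months (young replicates 1, 2 and 3). The comparison covered the 19965 genes to which the probe sets could be assigned, and 3 arrays of GFP-negative cells from young mice (aged 7, 7 and 4 months) entered only as a source of spread and as a reference level. All mice in the 3 groups were Sox1-GFP heterozygotes and had no treatment. The labels do not say how the reporter allele was built, nor the sex or strain of the mice. Papain was used to dissociate whole hippocampi, and the cells brightest for GFP were collected by flow cytometry. The sorted cells are labelled as stem and progenitor cells of the subgranular zone, although the tissue is given as the whole dissociated hippocampus. Each array is labelled as a biological replicate, and each young age is represented by 1 mouse in the GFP-positive group, so that age within that group and the individual mouse cannot be told apart. The submitters' design text states that 1 further young sample was removed by them as an outlier.

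Sox1 belongs to the SoxB1 transcription factors, which hold neural cells in an undifferentiated state. In the dentate gyrus of the adult hippocampus, radial stem cells of the subgranular zone give rise to dividing intermediate progenitors, which become doublecortin-positive neuroblasts and then granule neurons. The output of this lineage falls with age in rodents, and much of that fall occurs within the first months of adult life. Stem cells of this region share most of their transcriptome with astrocytes.

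In the astrocyte and stem cell lists the old and young sorted cells overlapped, and both stood apart from GFP-negative cells. Astrocyte genes (20 of 20 measured) had a mean log2 level between 10.35 and 10.61 on the old arrays, between 10.22 and 10.63 on the young GFP-positive arrays and between 7.56 and 8.15 on the GFP-negative arrays. Neural stem and progenitor genes (23 of 23) lay between 8.11 and 8.21 in old, 8.11 and 8.35 in young and 7.27 and 7.39 in GFP-negative cells. Sox1 itself had a mean log2 value of 7.57 ± 0.06 (SD, n = 4) in old and 7.48 ± 0.14 (n = 3) in young GFP-positive cells, against 7.20 ± 0.11 (n = 3) in GFP-negative cells. Nestin (Nes), the intermediate filament of neural progenitors, did not separate GFP-positive from GFP-negative cells: it lay between 5.11 and 5.96 in old, 4.99 and 5.53 in young and 5.51 and 5.69 in GFP-negative cells.

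Several arrays stood apart from their group. Old replicate 3 alone had a high Xist value, 11.90 against 4.95 to 5.69 on the other 9 arrays, and a low value of the Y-linked gene Ddx3y, 5.32 against 9.15 to 9.83, so that 1 of the 4 old samples had the expression pattern of a female. Young replicate 1 had a high value of the choroid plexus gene Ttr (12.59, with 9.53 and 6.03 in young replicates 2 and 3 and 6.35 to 7.83 in old cells), and the GFP-negative arrays numbered 1, 2 and 3 had similar values of 12.69, 9.26 and 5.88. Young replicate 3, from the youngest mouse, carried the highest values of neuroblast and cell cycle genes. Among the 7 GFP-positive arrays it also had the lowest mean log2 level of astrocyte genes, 10.22. It had the highest of microglia (6.77), oligodendrocyte precursor (6.95), mature oligodendrocyte (8.29) and mural and fibroblast genes (6.51). Endothelial and mature neuron genes were highest on other arrays. The part of other cell types in its neuroblast and cell cycle values was not tested. Young replicate 2 carried the highest values of immediate early genes among the 7 GFP-positive arrays. Correlations between arrays over all genes were 0.967 to 0.984 within old, 0.973 to 0.982 within young and 0.962 to 0.984 between the groups, and are given as a description. The results that rest on 1 of these arrays are given below with and without it.

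The test between ages was limma's moderated test on log2 values normalized by robust multichip averaging (RMA), fitted over all 10 arrays with 1 mean for each of the 3 groups. A gene was called at a Benjamini-Hochberg adjusted p under 0.05 over all genes. Expression of 3 genes, or 0.015% of those tested, differed by this rule, and all 3 were lower in old cells: Svbp, Atf3 and Prmt1. No gene was called higher in old cells (0 of 19965, or 0%). At an unadjusted p under 0.05, used here only for description, 2028 genes (10.2%) differed, of which 938 (4.7%) were higher and 1090 (5.46%) lower in old cells. The 4 old and 3 young values did not overlap at all for 2178 genes (10.9%), with old above young for 1368 (6.85%) and below it for 810 (4.06%). The median difference of all genes was 0.05 on the log2 scale. With the genes split into 10 bins of equal size by level, it ran from 0.11 in the bin of the lowest levels to -0.05 in that of the highest, so that dim genes were on average slightly higher and bright genes slightly lower on the old arrays. A count of members lower in old cells is read below against 5.46%, and one of members higher against 4.7%. These shares moved with the level: of the 5990 genes in the upper 3 bins 11.7% were lower and 3.36% higher, and of the other 13975 genes 2.81% and 5.27%.

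**Figure D1:**
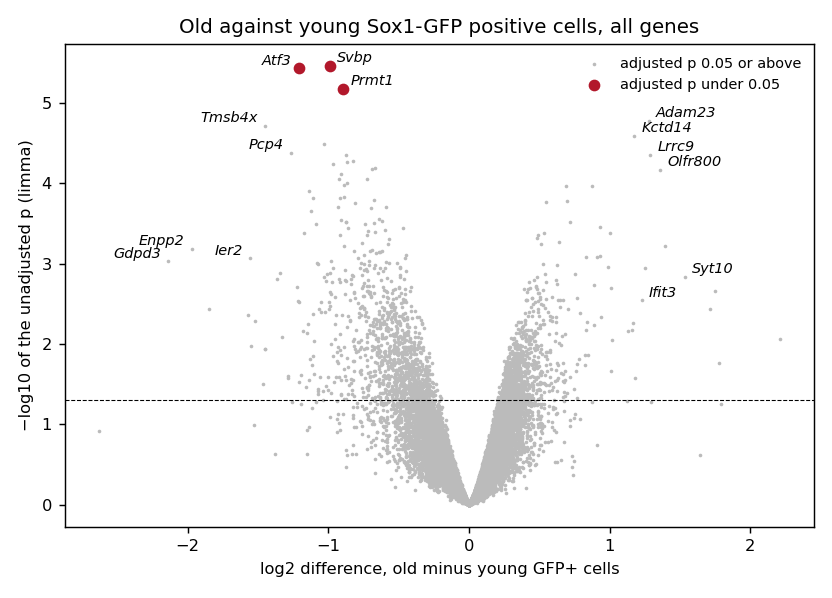
Each point is 1 of the 19965 genes, with the log2 difference (old minus young GFP-positive cells, 4 against 3 arrays) on the horizontal axis and the negative log10 of limma's unadjusted p on the vertical axis. The dashed line is an unadjusted p of 0.05, and the 3 large points on the left are the genes with an adjusted p under 0.05, Svbp, Atf3 and Prmt1.

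Svbp encodes the small vasohibin-binding protein, the partner that vasohibins need to remove the C-terminal tyrosine of alpha-tubulin. Its log2 values were 7.31, 7.39, 7.15 and 7.12 in old cells and 8.23, 8.31 and 8.15 in young cells. The old values were tightly grouped, and the gap to the young values was larger than the range within either group. Svbp fell by 0.99 on the log2 scale (SE 0.12), a 1.98-fold lower level, with an adjusted p of 0.0368 by limma. GFP-negative cells lay between both groups, at 7.43, 7.69 and 7.72.

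Atf3 encodes a basic leucine zipper transcription factor that many stresses induce within hours. It had values of 6.87, 6.73, 6.93 and 7.06 in old cells and 7.83, 8.41 and 8.09 in young cells. All old arrays were below all young arrays, with the highest young value in replicate 2. The log2 difference was -1.21 (SE 0.14, 2.31-fold lower in old, adjusted p 0.0368 by limma). GFP-negative cells had far higher values of 10.36, 10.29 and 10.52, so that the old GFP-positive cells were farther from the GFP-negative fraction than the young ones were.

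Prmt1 encodes the enzyme that makes most of the asymmetric dimethylarginine in mammalian proteins, among them histone H4 and many RNA-binding proteins. Values were 6.86, 6.70, 7.00 and 6.93 in old cells and 7.94, 7.68 and 7.67 in young cells. The young values lay near those of the GFP-negative fraction (7.86, 7.88 and 7.95) and the old ones below both. Prmt1 fell by 0.89 (SE 0.11), or 1.86-fold, with an adjusted p of 0.0440 by limma.

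The calls of these 3 genes did not hold under all 19 other settings tried. Leaving out arrays could not change their direction, because for each gene all old values lay below all young values. When 1 array was left out at a time, Svbp and Prmt1 lost significance in all 7 cases (adjusted p between 0.0528 and 0.150 for both) and Atf3 was called only without young replicate 1 (adjusted p 0.0137, with 0.0528 to 0.150 in the other 6 cases). In a fit to the 7 GFP-positive arrays alone the adjusted p was 0.0938 for Svbp and Atf3 and 0.153 for Prmt1.

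The promoters are shown for the 3 genes that passed the test in the main fit, whose calls did not hold under all other settings. Each window runs from 250 bases before to 50 bases after the annotated start, read 5′ to 3′ on the gene's strand, from RefSeq on GRCm38.p6; the arrays were mapped to another build, mm9, so these positions apply to GRCm38.p6 only. Atf3 lies at chr1:191183284-191183583 on the minus strand, Prmt1 at chr7:44986371-44986670 on the minus strand, and Svbp has windows at chr4:119195060-119195359 and chr4:119195275-119195574 on the plus strand, of which the first is printed. Capitals mark matches, on either strand, to TTACGTCA, CCAAT and GGGCGG.
Atf3: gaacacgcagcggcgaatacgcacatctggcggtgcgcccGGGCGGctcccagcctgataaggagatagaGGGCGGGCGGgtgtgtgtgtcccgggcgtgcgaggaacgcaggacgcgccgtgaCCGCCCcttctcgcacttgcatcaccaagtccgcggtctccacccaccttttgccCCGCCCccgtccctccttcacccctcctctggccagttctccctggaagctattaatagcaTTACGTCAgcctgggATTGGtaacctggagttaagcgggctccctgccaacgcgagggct
Prmt1: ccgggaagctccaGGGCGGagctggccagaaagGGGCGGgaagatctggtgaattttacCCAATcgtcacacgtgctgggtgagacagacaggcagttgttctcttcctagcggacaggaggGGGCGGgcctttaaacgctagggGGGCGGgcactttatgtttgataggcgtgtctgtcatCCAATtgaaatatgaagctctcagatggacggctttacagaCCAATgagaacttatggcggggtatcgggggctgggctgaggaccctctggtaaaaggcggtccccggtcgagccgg
Svbp: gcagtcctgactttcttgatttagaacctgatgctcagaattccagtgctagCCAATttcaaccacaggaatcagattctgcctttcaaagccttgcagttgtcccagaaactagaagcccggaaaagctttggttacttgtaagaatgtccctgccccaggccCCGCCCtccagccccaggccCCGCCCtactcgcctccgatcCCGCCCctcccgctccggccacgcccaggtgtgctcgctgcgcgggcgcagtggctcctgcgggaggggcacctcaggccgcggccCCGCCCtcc
The Atf3 promoter holds 1 match to TTACGTCA, an octamer of the kind bound by factors of the ATF and CREB families, starting 10 bases before the annotated start (position -10). This octamer was chosen after the Atf3 sequence had been read, and it occurs in 0.499% of the 32851 promoter windows of the same length. The palindrome TGACGTCA, present in 1.79% of windows, has no match in the 3 promoters. CCAAT, the core bound by nuclear factor Y, occurs in 37.4% of windows, and GGGCGG, the core of the GC box, in 35.7%. There was 1 CCAAT match in Atf3, 3 in Prmt1 and 1 in the printed Svbp window, and there were 5, 4 and 4 GGGCGG matches in the same order, some of them overlapping. The second Svbp window holds 5 GGGCGG matches and none of the other 3 motifs. A match is a description of the sequence and says nothing about occupancy in these cells.

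**Figure D2:**
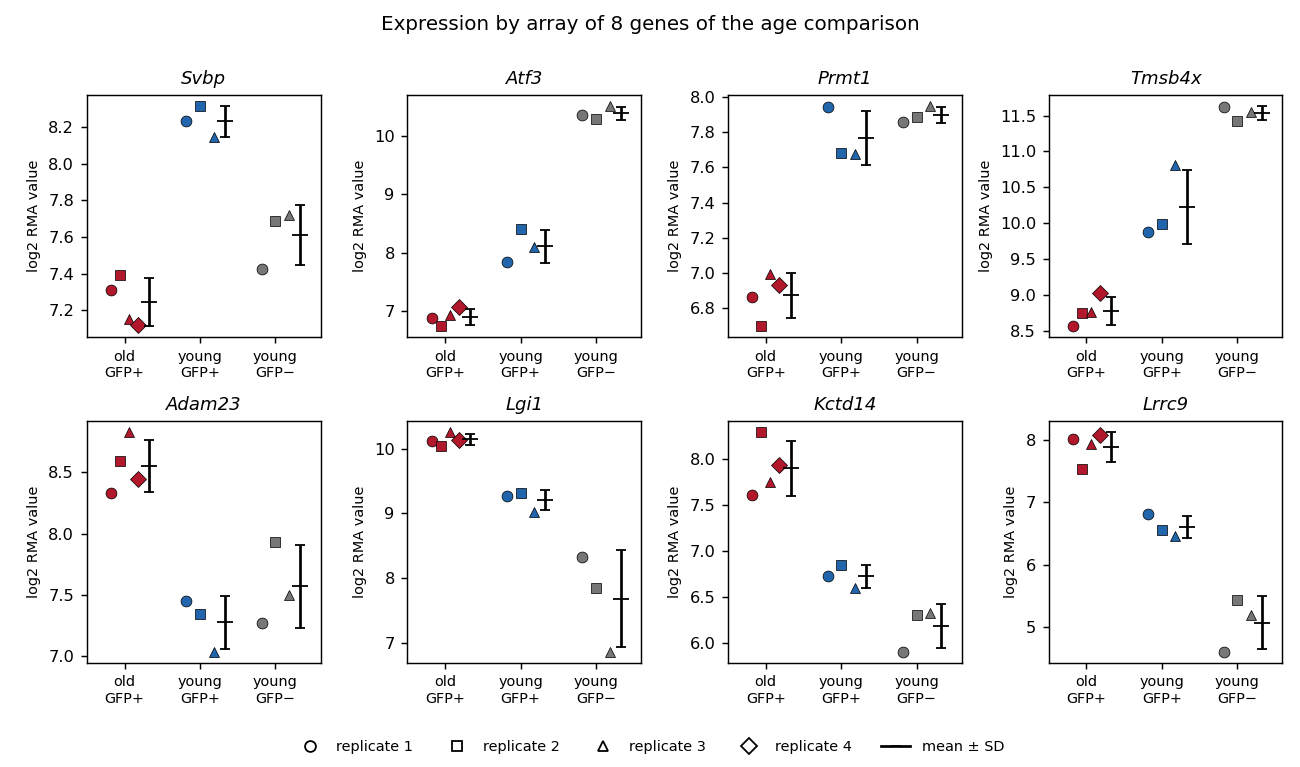
Log2 RMA values on the vertical axis for 8 genes on each array, with old GFP-positive (n = 4), young GFP-positive (n = 3) and young GFP-negative cells (n = 3) on the horizontal axis; symbols give the replicate number and bars the mean ± SD. In the upper row the old values lie below all young GFP-positive values, and in the lower row they lie above them.

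None of the genes next in rank reached an adjusted p under 0.05. On the lower side stood Tmsb4x, encoding thymosin beta 4, the main sequestering protein of actin monomers. It had values of 8.56, 8.74, 8.76 and 9.03 in old and 9.87, 9.99 and 10.81 in young cells, a difference of -1.45 (SE 0.20, adjusted p 0.0760 by limma), and between 11.43 and 11.62 in GFP-negative cells. Pcp4, a small modulator of calmodulin, followed the same order, with 7.89 to 8.50 in old, 9.07 to 9.78 in young and 10.50 to 10.86 in GFP-negative cells (difference -1.27, adjusted p 0.0844 by limma).

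The tyrosine phosphatase gene Ptp4a1 (-1.03), the junctional adhesion gene Jam3 (-0.82), Btf3 (-0.67), a subunit of the nascent polypeptide-associated complex, and Atp6v1g1 (-0.69), a subunit of the vacuolar proton pump, had old values below all young values and GFP-negative values above both. The other genes of this rank were Ddah2 (-0.88), of the family of dimethylarginine hydrolases, Mad2l2 (-0.87), a subunit of DNA polymerase zeta, Hspb11 (-0.91), also known as the intraflagellar transport protein Ift25, Creb3 (-0.93), a transcription factor of the endoplasmic reticulum membrane, and Timm50 (-0.72), of the mitochondrial import machinery. Adjusted p-values of all of these genes by limma lay between 0.0844 and 0.0934, and old and young values did not overlap for any of them, which was a condition for naming them.

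On the higher side Adam23 had the smallest p. It encodes a member of the disintegrin family without protease activity that serves as a neuronal receptor for the secreted protein Lgi1. Adam23 had values of 8.34, 8.59, 8.83 and 8.45 in old and 7.45, 7.34 and 7.03 in young cells. All old values were above all young values and above the GFP-negative values of 7.27, 7.93 and 7.50. The difference was 1.28 (SE 0.18, 2.43-fold higher in old), and its adjusted p of 0.0760 by limma missed the threshold.

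The ligand Lgi1 had values of 10.12, 10.05, 10.26 and 10.14 in old cells and 9.27, 9.31 and 9.03 in young cells. The 4 old values spanned a narrower range than the young ones, and GFP-negative cells were lower still at 8.33, 7.85 and 6.86. Lgi1 was 0.94 higher in old cells (95% confidence interval 0.36 to 1.52) with an adjusted p of 0.294 by limma. The list of Lgi ligands, their receptors and synaptic partners has 10 genes, with a median of -0.07. At an unadjusted p under 0.05, 2 (20%, Adam23 and Lgi1) were higher and 1 (10%) lower. Over all genes these shares were 4.7% and 5.46%. The count includes Adam23 itself, 1 of the 4 marker genes of the comparison. The lower one was Dlg4, encoding the scaffold protein PSD-95, at -0.57. The other receptors were at 0.12 (Adam11) and -0.06 (Adam22), and the ligands Lgi2, Lgi3 and Lgi4 at -0.32, -0.22 and -0.09. The 95% confidence interval for Lgi2 was -0.76 to 0.12.

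Further genes higher in old cells included Kctd14 (7.61, 8.30, 7.76 and 7.93 in old against 6.73, 6.85 and 6.60 in young) and Lrrc9 (8.01, 7.53, 7.93 and 8.08 against 6.81, 6.55 and 6.45). Both were higher in young GFP-positive than in GFP-negative cells too, so that old cells continued that order. Their differences were 1.17 and 1.29, each with an adjusted p of 0.0844 by limma.

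Lama3, encoding a laminin alpha chain, was at 0.87, and Arhgap31, a GTPase-activating protein for Rac1 and Cdc42, at 0.69. Kidins220, a scaffold of neurotrophin receptors, was at 0.55. Of genes acting in DNA repair, Mlh3 was at 0.93 and Rad50 at 0.53. Parp9, an interferon-inducible member of the ADP-ribosyltransferase family, was at 0.70 and the taxilin gene Txlnb at 1.00. The olfactory receptor gene Olfr800 was at 1.36, on low values of 4.36 to 5.40 in old and 3.59 to 3.87 in young cells. Adjusted p-values of these 8 genes by limma lay between 0.0844 and 0.156. The last 4 genes named for their small p, Akr1b8 (0.72), Fxyd3 (0.64), Actl7a (0.49) and Olfr198 (0.49), had adjusted p-values between 0.147 and 0.181 by limma.

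The largest differences rested on more variable values. Syt10, a synaptotagmin, was 1.54 higher in old cells but ranged from 6.88 to 8.57 there, against 5.86 to 6.46 in young cells. The protocadherin Pcdhb9 was 1.40 higher and the pheromone receptor gene Vmn1r191 1.25 higher. Gdpd3 was at -2.14, with values of 6.97, 5.04, 6.70 and 5.00 in old and 8.26, 8.0 and 7.94 in young cells. Old cells thus split into higher replicates 1 and 3 and lower replicates 2 and 4, all below the young cells.

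Enpp2, encoding autotaxin, had values of 7.69, 8.19, 7.67 and 7.96 in old and 11.21, 8.84 and 9.50 in young cells, a difference of -1.97 (adjusted p 0.200 by limma). The highest young value was that of replicate 1, the array with the highest Ttr. The choroid plexus expresses Enpp2 strongly, and oligodendrocytes do as well. Gdpd3 and Enpp2 both encode enzymes with lysophospholipase D activity. Other large negative differences belonged to Cks1b (-1.57), a cyclin-dependent kinase subunit, Naa20 (-1.47), the catalytic subunit of an N-terminal acetyltransferase, the histone gene H4c4 (-1.37) and the small nucleolar RNA Snord38a (-1.85). The Cks1b difference was -0.92 without young replicate 3, and that of Naa20 was -0.86 without old replicate 1. Snord38a was at 4.49 in young replicate 3, close to the old values of 3.81 to 4.24, and at 6.73 and 6.66 in the other young replicates.

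Immediate early genes, which neurons and glia induce within minutes of stimulation and which can also respond to tissue dissociation, were lower in old cells as a list. All 18 members were below 0, with a median of -0.69; 8 of 18 were lower at an unadjusted p under 0.05 (44.4%, against 5.46% of all genes) and 0 higher (against 4.7%), and Atf3 was the one member past the adjusted threshold. Of the list, 14 of 18 members lay in the upper 3 of the 10 bins by level, where 11.7% of all genes were lower. Ier2 had values of 6.01, 6.15, 5.68 and 5.46 in old and 6.37, 8.25 and 7.52 in young cells. Its difference of -1.55 carried an adjusted p of 0.214 by limma, with young replicate 1 only a little above the old arrays. Btg2, an antiproliferative gene, was at -1.11, Egr1 at -0.94, Ier3 at -0.66, Jun at -0.60 and Fos at -0.54; Egr1, Jun and Fos are not among the list's 4 members of smallest p and are named as its best known members, after their values were seen.

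The mean log2 level of the list was 8.21, 8.02, 7.55 and 7.71 on the old arrays and 8.05, 9.21 and 8.44 on the young ones. Young replicate 1 thus fell between the old arrays, and GFP-negative cells were above all of them at 9.68 to 9.85. Without young replicate 2 the list median was -0.27 and 3 members were lower, and without young replicate 1 it was -0.92 and 13 were lower. Time from dissection to lysis is not given in the labels, and its part in this result was not tested.

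Genes of protein stress were lower in old cells by a smaller margin. In the list of the integrated stress and unfolded protein responses 7 of 14 members (50%) were lower and 0 higher, with a median of -0.35: the endoplasmic reticulum chaperone Hspa5 at -0.55, the transcription factors Xbp1 and Atf4 at -0.52 and -0.44, and asparagine synthetase (Asns) at -0.70. Of the heat shock and chaperone genes 5 of 13 (38.5%) were lower and 0 higher, with a median of -0.31, among them Hspe1 (-0.33), Hsph1 (-0.39) and Hsp90ab1 (-0.31). Hspa5 belongs to both lists and is counted in each. Hspa1b, on the heat shock and chaperone list, was not measured. Without young replicate 2 these counts were 3 of 14 and 1 of 13. After quantile normalization of the arrays they were 5 of 14 and 2 of 13, with medians of -0.27 and -0.21. No member of either list had an adjusted p under 0.05. The share of lower genes was 5.46% over all genes and 11.7% in the upper 3 of the 10 bins by level. Those bins held 9 of 14 members of the stress response list and 13 of 13 of the heat shock and chaperone list.

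Genes of the neuroblast stage were lower in old cells, and for most of them this rested on the 4-month-old mouse. In the list of immature neuron genes 6 of 14 measured members (42.9%) were lower and 0 higher at an unadjusted p under 0.05. Over all genes these shares were 5.46% and 4.7%. The median of the list was -0.75, and Stmn1 was not measured. The summed linear level of the list was 1354 to 1733 on the old arrays and 1907 to 4816 on the young ones. Its mean log2 level was 6.39, 6.30, 6.33 and 6.18 in old and 6.54, 6.51 and 7.90 in young cells. As a list, young replicates 1 and 2 thus lay a little above all old arrays and replicate 3 far above them. Doublecortin (Dcx), the microtubule protein that marks neuroblasts, was at 6.48, 6.64, 6.91 and 6.36 in old cells and at 6.50, 6.31 and 8.87 in young cells. Replicates 1 and 2 of the young group thus lay within or below the old range, and replicate 3 far above it. The Dcx difference of -0.63 (95% confidence interval -1.76 to 0.50) had an adjusted p of 0.661 by limma, and without young replicate 3 it was 0.19.

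Eomes, the transcription factor Tbr2 of intermediate progenitors, had values of 5.84, 5.73, 5.66 and 5.66 in old and 6.09, 6.11 and 7.41 in young cells. Here the 2 older of the young mice were above all old mice as well, by a smaller margin than the 4-month-old one (difference -0.82, adjusted p 0.370 by limma). The surface protein gene Cd24a (-1.18) had the smallest p of the list, with overlap between the groups. Eomes was next, followed by Neurod4 (-0.80) and Tbr1 (-0.87). Without young replicate 3 the median of the list was -0.22 and 3 members were lower. In sorted bulk cells, fewer cells of a type and less RNA per cell cannot be told apart.

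Cell cycle genes showed the same array standing out. Of 27 members 5 (18.5%) were lower and 0 higher at an unadjusted p under 0.05, with a median of -0.23. Over all genes these shares were 5.46% and 4.7%. The summed linear level of the list was 2936 to 3132 on the old arrays and 3560 to 5602 on the young ones. The mean log2 level was 6.25, 6.25, 6.39 and 6.19 in old and 6.35, 6.35 and 7.06 in young cells. Pcna, the sliding clamp of DNA replication, had values of 9.35, 9.28, 9.05 and 9.83 in old and 10.01, 10.25 and 10.31 in young cells. Cdk4, the kinase of the G1 phase, had values of 7.86, 7.96, 7.66 and 8.07 in old and 8.68, 8.43 and 9.44 in young cells. For both genes all 3 young mice were above all old mice (differences -0.81 and -0.97, adjusted p 0.202 and 0.222 by limma).

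Cyclin A2 (Ccna2) was at -0.68 and Cdk2 at -0.39. The proliferation marker Mki67 was at 5.65, 5.74, 5.87 and 5.64 in old and 5.95, 5.62 and 7.14 in young cells. Young replicate 3 stood far above the old range, replicate 1 just above it and replicate 2 just below it, and the Mki67 difference of -0.51 had a 95% confidence interval of -1.16 to 0.14. Without young replicate 3 the median of the cell cycle list was -0.03 and 2 members were lower.

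Of the inhibitors of the cycle 9 of 11 were below 0, with a median of -0.31. At an unadjusted p under 0.05, 3 (27.3%) were lower and 1 (9.09%) higher, against 5.46% and 4.7% of all genes. Trp53 was at -0.62, Btg2 at -1.11, Gadd45b at -0.50 and the retinoblastoma gene Rb1 at 0.49. Btg2 is also counted among the immediate early genes. Cdkn2a, the p16 locus that marks senescent cells, differed by 0.01, and Cdkn2d on the same list was not measured.

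**Figure D3:**
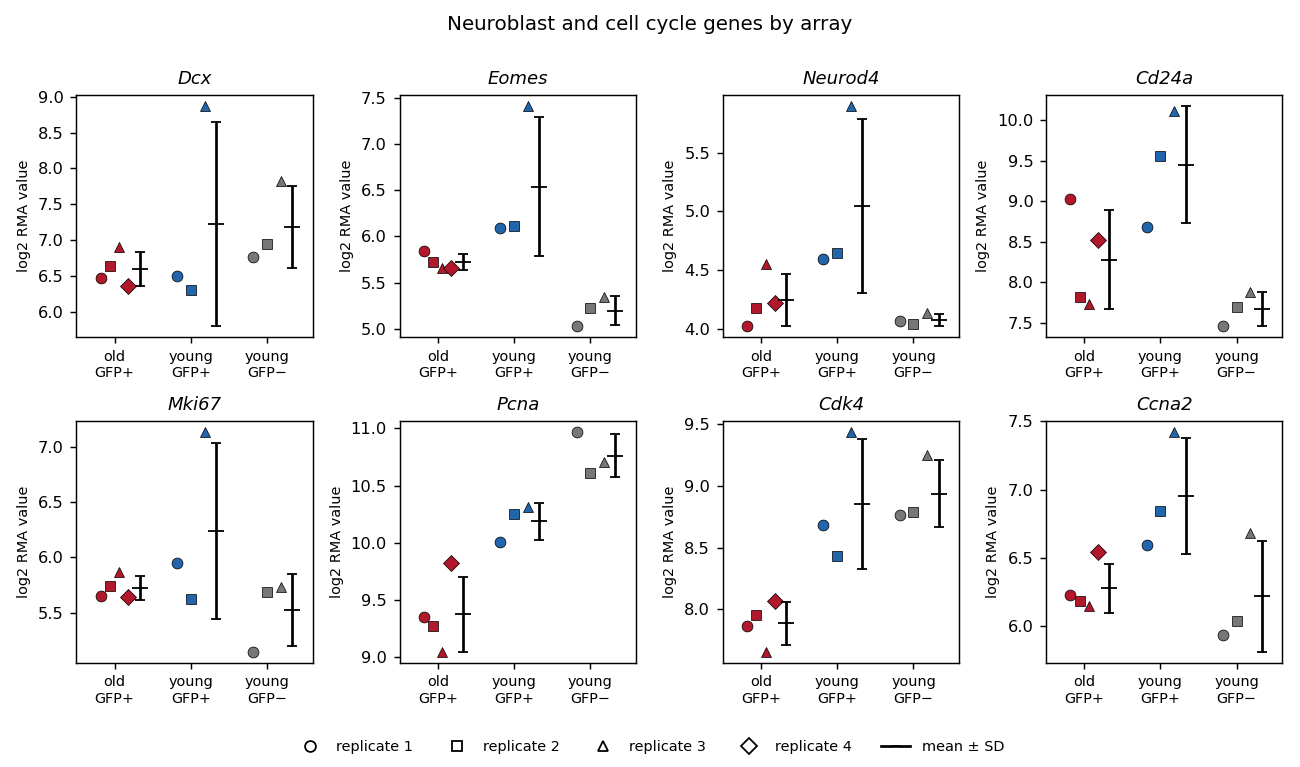
Log2 RMA values on the vertical axis of 4 neuroblast and progenitor genes (upper row) and 4 cell cycle genes (lower row) on each array, with the 3 groups on the horizontal axis, symbols for the replicate number and bars for the mean ± SD. The triangle of the young GFP-positive group, from the 4-month-old mouse, is the highest GFP-positive value in all 8 panels.

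Genes of stem cell and astrocyte identity did not pass the test, and the intervals leave room for moderate differences. For Sox1 the difference was 0.09 with a 95% confidence interval of -0.14 to 0.32, and for Sox2, its paralogue in the same cells, 0.06 (-0.44 to 0.56). Nes was at 0.18 (-0.27 to 0.64) and Gfap, the filament gene of radial stem cells and astrocytes, at 0.43 (-0.48 to 1.33). The interval was narrowest for Sox1 and widest for Gfap.

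In the stem and progenitor list 1 of 23 members (4.35%) was lower and 0 higher, with a median of -0.04. The lower one was Thrsp, a regulator of lipid synthesis that marks slowly dividing stem cells of the mouse dentate gyrus. It had values of 9.41, 9.77, 8.91 and 9.38 in old and 10.21, 10.36 and 9.87 in young cells, with no overlap (difference -0.78, adjusted p 0.282 by limma). None of the 20 astrocyte genes differed in either direction at an unadjusted p under 0.05, and their median was 0.02.

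Cytosolic ribosomal protein genes had the highest share of lower members among the 33 lists. Of 53 members 32 (60.4%) were lower and 1 (1.89%) higher at an unadjusted p under 0.05, and 46 of 53 were below 0, with a median of -0.45. Rps26 was at 8.49, 8.29, 8.40 and 8.53 in old and 9.05, 9.55 and 9.57 in young cells (difference -0.96, adjusted p 0.0844 by limma). Rps15a (-0.81), Rpl30 (-0.67) and Rpl23a (-0.86) had no overlap either. The mean log2 level over the list was 8.46, 8.39, 8.46 and 8.60 in old and 8.63, 9.02 and 8.98 in young cells, so that young replicate 1 was nearly level with old replicate 4. GFP-negative cells had more, at 9.28 to 9.58. With 1 array left out at a time, 22 to 34 members were lower and the median lay between -0.57 and -0.37.

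Genes of energy metabolism and protein breakdown were lower in smaller steps. In oxidative phosphorylation 34 of 77 members (44.2%) were lower and 0 higher, with a median of -0.33. Atp5mpl, a small subunit of the ATP synthase, had values of 9.93, 9.86, 10.07 and 9.88 in old and 10.58, 10.63 and 10.46 in young cells (difference -0.62, adjusted p 0.147 by limma). Ndufs5 (-1.0) and Ndufs4 (-0.49) belong to complex I. The mean level of this list on young replicate 3, 8.90, fell below that of old replicate 4, 8.96, and the count of lower members was 16 without young replicate 2 and 45 without young replicate 3.

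In the proteasome 20 of 39 members (51.3%) were lower and 2 (5.13%) higher, with a median of -0.31. The subunit genes Psmb2 (-0.71) and Psma6 (-0.65) had no overlap. The 2 higher members were Psmb8 (0.49) and, named after its value was seen, Psmb11 (0.42), the catalytic subunits that replace their constitutive counterparts in the immunoproteasome and the thymoproteasome. The mean level of the proteasome list was 8.27, 8.22, 8.10 and 8.37 in old and 8.56, 8.60 and 8.47 in young cells, with no overlap between the groups. Mitochondrial ribosomal protein genes had 13 of 76 (17.1%) lower and 0 higher and a median of -0.17, with Mrpl33 at -0.88.

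Of these ribosomal, oxidative phosphorylation, proteasome and mitochondrial ribosomal lists, 44 of 53, 69 of 77, 30 of 39 and 47 of 76 members lay in the upper 3 of these 10 bins of genes by level, where the medians over all genes were -0.05 to -0.06 and 11.7% of all genes were lower. Against that share the 17.1% of the mitochondrial ribosomal list is a small excess. After quantile normalization of the arrays 26 ribosomal, 27 oxidative phosphorylation, 19 proteasome and 11 mitochondrial ribosomal genes were lower, with medians of -0.37, -0.23, -0.22 and -0.14.

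**Figure D4:**
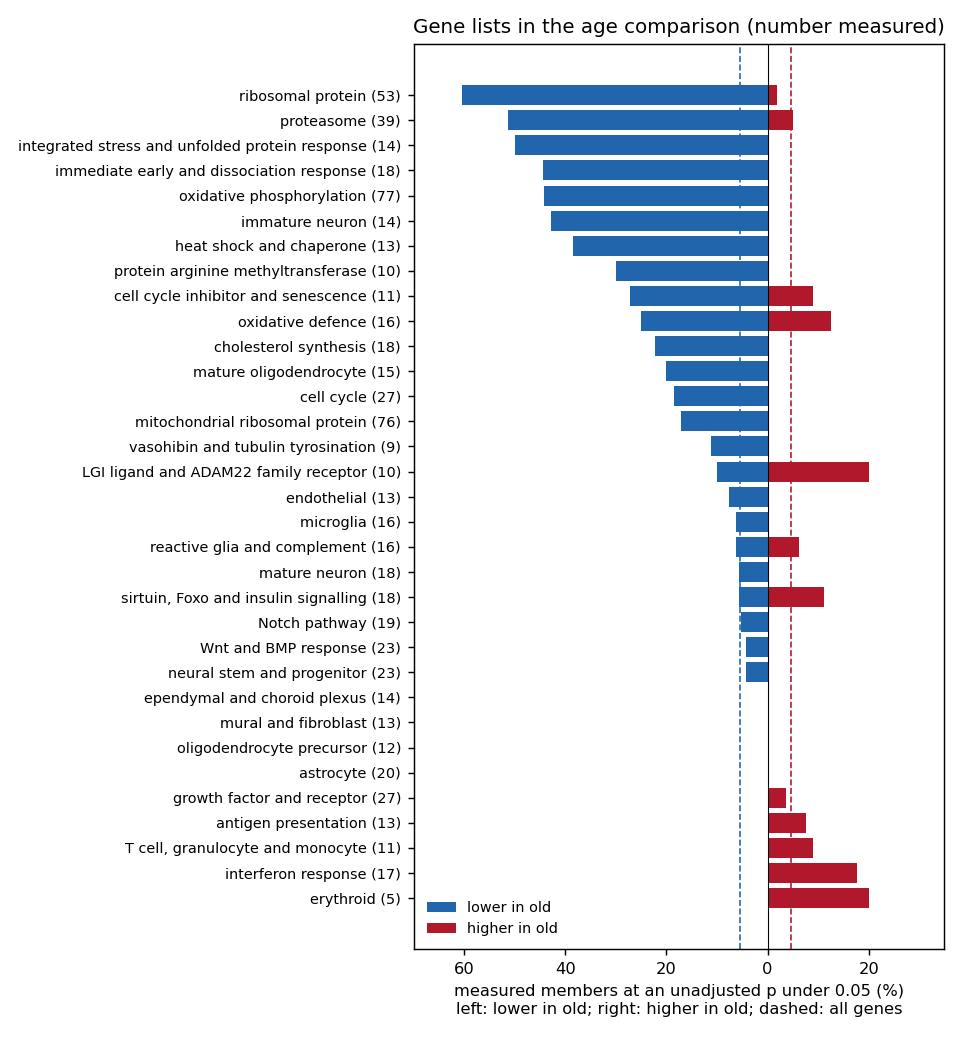
For each of the 33 gene lists, the bar to the left gives the percentage of measured members lower and the bar to the right the percentage higher in old cells at an unadjusted p under 0.05 (limma, 4 against 3 arrays); the number measured is in parentheses and the dashed lines give the same for all genes (5.46% and 4.7%). Ribosomal protein genes have the longest bar on the left, 60.4%.

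Cholesterol synthesis genes had 4 of 18 members (22.2%) lower and 0 higher, with a median of -0.11. Sqle, squalene epoxidase, had values of 9.37, 9.46, 9.27 and 9.41 in old and 9.75, 9.72 and 9.62 in young cells (difference -0.32, adjusted p 0.313 by limma). Pmvk, Fdps and Dhcr7 were at -0.55, -0.47 and -0.45 with overlapping groups. After quantile normalization of the arrays 3 members of the list were lower and its median was -0.02. Of the list, 16 of 18 members lay in the upper 3 of the 10 bins by level, where 11.7% of all genes were lower.

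In the list of oxidative defence 4 of 16 (25%) were lower and 2 (12.5%) higher. Glutathione peroxidase 1 (Gpx1) had 7.39, 6.55, 6.68 and 7.15 in old against 7.75, 8.21 and 7.83 in young cells, a difference of -0.98, and thioredoxin (Txn1) and peroxiredoxin 2 (Prdx2) were at -0.66 and -0.56. The extracellular superoxide dismutase Sod3 was at 0.35. Of this list, 12 of 16 members lay in the upper 3 of the 10 bins by level, where 11.7% of all genes were lower.

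Genes of the interferon response leaned to the other side, with 15 of 17 measured members above 0 and a median of 0.17; of all genes, 12052 of 19965 were above 0. Isg15 was not measured. At an unadjusted p under 0.05, 3 of 17 (17.6%) were higher and 0 lower: Ifit3, Oas1a and Irf7. Ifit3, an interferon-induced antiviral gene, had values of 8.43, 8.90, 7.73 and 7.70 in old and 7.36, 7.30 and 6.22 in young cells. All old values were above all young values, but the lowest old and highest young values were close (difference 1.23, adjusted p 0.263 by limma). Its paralogue Ifit3b, which is close in sequence and may share probes with it, was at 1.34. Oas1a and Irf7 differed by 0.25 and 0.34, and Irf9 was on the lower side at -0.62. Leaving out 1 array at a time gave between 1 and 3 higher members.

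In antigen presentation 1 of 13 (7.69%) was higher, Psmb8, and 0 lower. Among 16 genes of reactive glia and complement 1 (6.25%) was lower and 1 (6.25%) higher. Complement component C4b had values of 8.67, 9.14, 8.42 and 9.01 in old and 8.20, 8.0 and 7.56 in young cells, with no overlap (difference 0.89, adjusted p 0.302 by limma). The acute phase gene Serpina3n went the other way, with 7.55, 6.32, 6.45 and 8.49 against 9.06, 8.64 and 8.47 (difference -1.52, adjusted p 0.299 by limma), and old replicate 4 reached the young range.

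Signalling lists had few members apart from zero. In the Notch pathway 1 of 19 (5.26%) was lower, the Notch antagonist Numb at -0.53, and 0 were higher, and the Notch target Hes1 was at -0.48 with a 95% confidence interval of -1.12 to 0.16. In the list of Wnt and BMP responses 1 of 23 (4.35%) was lower, the BMP target Id1 at -0.53. Among 27 growth factors and receptors 1 (3.7%) was higher, Egf at 0.27. The list of sirtuins, Foxo factors and insulin signalling had 1 of 18 (5.56%) lower, Akt1 at -0.36, and Foxo1 was at 0.49. These shares lie near the background of 5.46% and 4.7% or rest on 1 or 2 genes.

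Of the arginine methyltransferases, all 10 members had differences at or below 0, with a median of -0.16; Prmt1 was the one past the adjusted threshold, and 3 of 10 (30%) were lower and 0 higher at an unadjusted p under 0.05. Prmt7, which makes monomethylarginine, had 6.62, 7.15, 7.14 and 6.98 in old and 7.42, 7.58 and 7.47 in young cells, with no overlap. Its difference of -0.52 had an adjusted p of 0.263 by limma, and Prmt9 was at -0.41. Prmt5, the main enzyme for symmetric dimethylarginine, was at -0.14 and Carm1 at -0.08.

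In the list of vasohibins and enzymes of tubulin tyrosination, Svbp was the only one of 9 measured members with an unadjusted p under 0.05 (11.1% lower, 0 higher). Its partners Vash1 and Vash2 were at 0.21 and 0.31, the tubulin tyrosine ligase gene Ttl at 0.28 and the deglutamylase gene Agtpbp1 at -0.35. Ttll7, Agbl1 and Matcap1 were not measured.

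**Figure D5:**
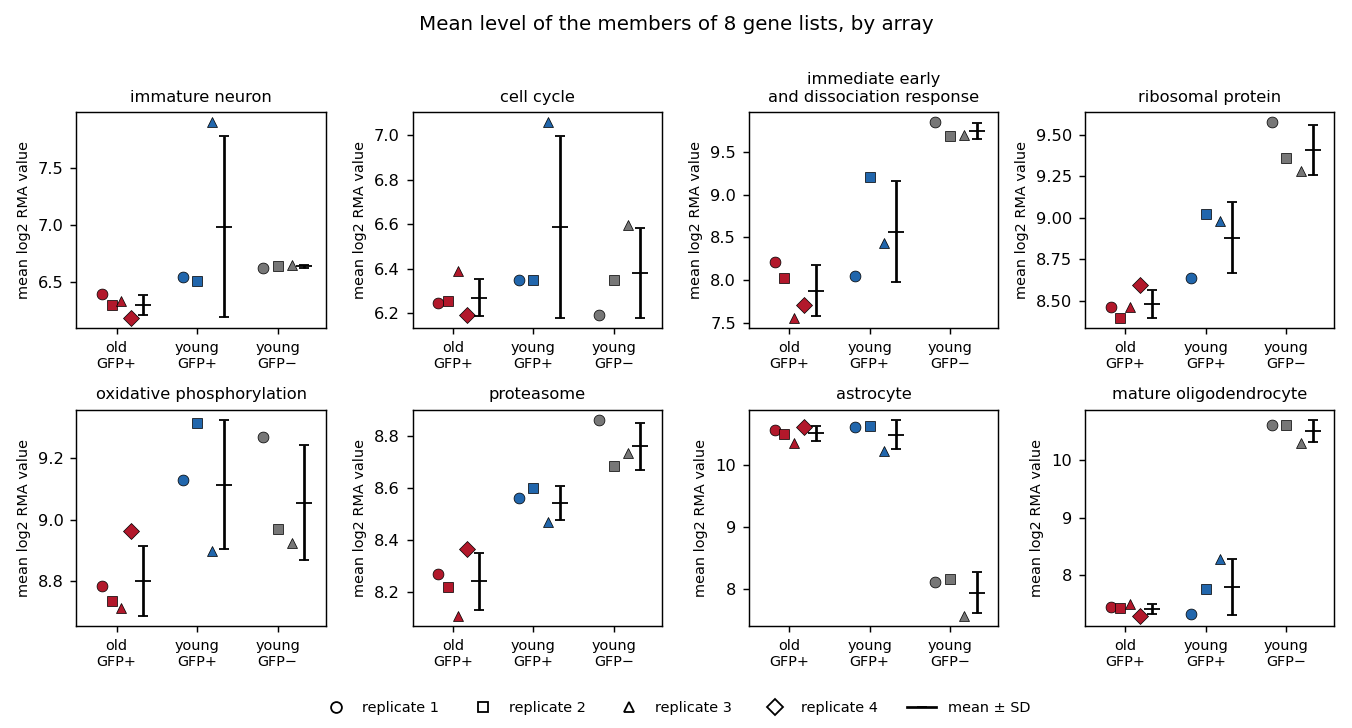
Mean log2 RMA value over the members of 8 gene lists on each array on the vertical axis, with the 3 groups on the horizontal axis, symbols for the replicate number and bars for the mean ± SD. Young replicate 3 is alone at the top for the immature neuron and cell cycle lists, young replicate 2 is the highest GFP-positive array for immediate early genes, and the astrocyte list has nearly the same level in old and young GFP-positive cells.

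Markers of other cell types were examined for their level in the sorted cells; RMA gives no value of 0, and the table holds no detection call. Mature oligodendrocyte genes had 3 of 15 members (20%) lower and 0 higher, against 5.46% and 4.7% of all genes, with a median of -0.46. Myelin-associated glycoprotein (Mag) was at 6.10, 6.26, 6.14 and 6.05 in old and 6.45, 7.14 and 7.74 in young cells, and between 10.45 and 10.83 in GFP-negative cells (difference -0.97, adjusted p 0.244 by limma). Young replicate 1 was nearest to the old arrays. Mog and Cnp were at -0.73 and -0.52. The summed linear level of the list was 3664 to 4243 in old, 3844 to 7607 in young and 25661 to 31239 in GFP-negative cells. Without young replicate 1 the median was -0.73 and 9 members were lower; without young replicate 3 it was -0.18 and 3 were lower. The highest of these sums was that of young replicate 3, which was also the highest in neuroblast genes, and the part of oligodendrocyte RNA in the results above was not tested.

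Ependymal and choroid plexus genes summed to 1009 to 1454 in old and 1026 to 8209 in young cells, the highest young value being that of replicate 1. None of 14 was lower or higher at an unadjusted p under 0.05, although the median was -0.46, and without young replicate 1 it was -0.003. Ttr had the largest difference of the list, -2.63, with a 95% confidence interval of -6.07 to 0.81. Without young replicate 1 the Enpp2 difference shrank from -1.97 to -1.29, and the remaining old and young values did not overlap. The part of choroid plexus RNA in the Enpp2 difference was not tested further.

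Microglia genes summed to 1268 to 1526 in old, 1253 to 2049 in young and 12581 to 17532 in GFP-negative cells. Endothelial genes summed to 863 to 1026 in old and 774 to 1151 in young cells, with 1 of 13 (7.69%) lower, Ly6a at -0.83, and mural and fibroblast genes to 1099 to 1319 and 1031 to 1412, with 0 of 13 in either direction. For mature neurons 1 of 18 (5.56%) was lower, the somatostatin gene Sst at -1.10, and the summed level was 2632 to 4076 in old and 2783 to 5175 in young cells. Oligodendrocyte precursor genes had 0 of 12 in either direction. Of the blood lists, 1 of 11 measured T cell, granulocyte and monocyte genes (9.09%) was higher, Nkg7 at 0.30, which had low values of 5.27 to 5.83 over the GFP-positive arrays. Ly6g, Ly6c2 and Trbc1 of this list and Hbb-bs, Hba-a1 and Hba-a2 of the erythroid list were not measured.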

How the data were processed

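Amplified RNA of the sorted cells was measured, per the labels' protocols, on the Affymetrix GeneChip Mouse Gene 1.0 ST Array. The authors deposited log2 values made by robust multichip averaging with probes regrouped to RefSeq genes of mm9, per the submitters' processing notes and design text; no source used here gives the RMA version. Of 31672 probe sets, 24590 matched 1 symbol through RefSeq identifiers (names of GRCm38.p6, no coordinates of it used for the arrays), 0 several and 7082 none. A gene was read from its brightest probe set over all 10 arrays (3010 of 19965 genes had several). In 11 groups, 27 genes had identical values and cannot be told apart. The table holds no detection call. Precision is limited by how many arrays there are.

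Group means of the 3 groups were fitted with limma 3.58.1 in R 4.3.3 (two-sided, with 7 residual degrees of freedom and 4.07 from the prior, Benjamini-Hochberg over all genes); the script was tested on simulated data. The design text names significance analysis of microarrays at a false discovery rate cutoff of 5%, which was not run here. Named genes were Sox1, Sox2, Nes, Gfap, Dcx, Mki67, Atf3, Svbp, Prmt1 and Adam23, in each direction the 15 of smallest p and the 8 of largest difference (unadjusted p under 0.05) among genes whose groups did not overlap, and up to 4 members of smallest p from each of 33 gene lists; the text gives 112 of these. Egr1, Jun, Fos, Psmb11, Adam11, Adam22, Lgi3, Lgi4, Prmt5, Carm1, Vash1, Ttl and Cdkn2a, also members of the lists, were named after their values were seen; the results for a few list members are not reported here. The comparison, its 4 marker genes and the lists were chosen with earlier results of these data known. The pattern for ribosomal protein genes was narrowed after its values were seen, because it had also matched ribosomal protein kinases and like-named genes. No block was used in the main fit, because same numbers in the old and young groups stand for different mice. Deviations of same-numbered old and young arrays from their group means correlated at -0.02, -0.07 and 0.22. The last value was the highest of all pairs of an old and a young array. These correlations cannot show whether same-numbered arrays shared a batch. Alternatives were a fit without the GFP-negative arrays, the replicate block, filters on dim genes, other choices of probe set, quantile normalization, a trended robust prior, array weights, a random block for young samples of 1 number and arrays left out. Figures were drawn with matplotlib 3.10.9.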

Additional observations from a re-analysis of the deposited data

Results flagged for a closer look

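Among the 112 named genes, 6 (5.36%) had 1 of the 4 old arrays far from the other 3, where chance alone flags about 1 group in 20. Old replicate 2 was high for the interferon-induced gene Ifit3b, at a log2 value of 7.11 against 5.65 to 5.85 on the other old arrays. Old replicate 1 was low for the interferon signalling factor Irf9, at 5.35 against 6.48 to 6.62, and high for the choroid plexus gene Ttr, at 7.83 against 6.35 to 6.44. Old replicate 4 was low for Agtpbp1, at 7.99 against 8.46 to 8.51, and for Kidins220, at 10.99 against 11.15 to 11.18. Old replicate 3 was low for the small nucleolar RNA Snord38a, at 3.81 against 4.17 to 4.24. The causes were not tested.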

How the results depend on the processing

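The count of 3 genes past an adjusted p of 0.05 was 0 in a fit to the 7 GFP-positive arrays, 0 with the replicate block (2580 at an unadjusted p under 0.05), 0 after quantile normalization (2046 unadjusted) and 0 with a trended robust prior (2100 unadjusted). It was 9 without the dimmest 50% of genes (1157 unadjusted, of fewer genes tested), 5 with the mean of a gene's probe sets, 8 over all probe sets (3272 unadjusted; 3 of the 8 have no name), 20 with array weights, 1 without both 4-month samples and, in an alternative chosen after seeing the data, 6 without young replicate 1 and old replicate 3. With 1 array left out at a time it ranged from 0 to 9: 0 without old replicate 1 or 2 or young replicate 2 or 3, 2 without old replicate 3 or 4, and 9 without young replicate 1, of which 1 was among the 3 (Atf3); without each of the other 6 arrays none of the 3 genes was called. The unadjusted count of 2028 ranged from 1559 to 2704 in the same way. The 20 genes called with array weights included all 3, as did the 9, 5 and 8 above. Under the 19 settings Svbp, Atf3 and Prmt1 had adjusted p-values by limma between 0.0137 and 0.324. Their differences stayed negative, which leaving out arrays could not change because their old and young values did not overlap. Differences changed sign for Sox2 (-0.0373 with array weights, -0.159 without both 4-month samples), Gfap (-0.0280) and Dcx (0.192), the last pair without both 4-month samples. With 1 array left out at a time, Sox2 ranged from -0.159 to 0.181, Gfap from -0.0280 to 0.762 and Dcx from -1.09 to 0.192, with the change of sign without young replicate 3 in each. None of these passed the test in any setting. Without young replicate 1, Tmsb4x, Rps26, Ier2 and Mag had adjusted p-values by limma of 0.0419, 0.0395, 0.0137 and 0.0456, and Olfr800 had 0.00462 without old replicate 4. With 1 array left out at a time, 31 of the 112 named genes had differences that moved by over 1.5 times or, for 3 of them, changed sign. The replicate block changed no other call. The labels do not say whether young GFP-positive and GFP-negative samples of 1 number share a mouse, and those numbered 2 differ in age; deviations of same-numbered arrays from their group means correlated at 0.12, 0.02 and 0.19. With these numbers as a random replicate block, chosen after seeing the data, the count was 3 (2034 unadjusted), and Svbp, Atf3 and Prmt1 had adjusted p-values by limma of 0.0454, 0.0454 and 0.0495. The causes of these shifts were not tested.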
